A study of Mus musculus with 38 samples.

Results

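The clustered replication-dependent histone genes supply the H1, H2A, H2B, H3 and H4 proteins that package newly copied DNA. They were taken as all mouse protein-coding genes whose symbol in the mm10 era began with Hist1h, Hist2h, Hist3h or Hist4h. This gave 67 of 21938 protein-coding genes, of which 6 encoded H1, 18 H2A, 18 H2B, 12 H3 and 13 H4. On mm10 (GRCm38) they lay in 6 regions separated by more than 200 kb. On chromosome 13, 18 genes had starts from 21716143 to 21833743, 5 from 22035568 to 22043214 and 31 from 23531050 to 23934462. A further 10 lay on chromosome 3 from 96219865 to 96269752, 2 on chromosome 11 at 58948920 (Hist3h2ba) and 58954685 (Hist3h2a), and Hist4h4 on chromosome 6 at 136804415.

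These genes are transcribed in S phase, when the cell needs histones in proportion to its new DNA. Many H2A and H2B genes stand back to back and share the DNA between their starts, and the coactivator NPAT gathers the clusters in a nuclear compartment named the histone locus body. Their messages end in a short stem-loop in place of a poly(A) tail, which the stem-loop binding protein holds. H3 and H4 form the tetramer at the core of the nucleosome, H2A and H2B add to it as dimers, and H1 binds the linker DNA.

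The label of the genes was checked by the stem-loop. A string of 16 bases with 1 free position was found within 500 bases after the stop codon in 51 of 67 genes, and a looser form with 7 free positions, chosen after seeing the data, in 65. The 2 genes without it were Hist1h2an and Hist2h2be. The stem-loop began a median of 30 bases after the stop. The commonest form was held by 41 genes and the next by 9, and a form held by 8 changed a base pair of the stem. These strings are shown because they mark the class, in lower case throughout as no part is singled out:
Form of 41 genes: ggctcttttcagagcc
Form of 9 genes: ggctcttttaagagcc
Form of 8 genes: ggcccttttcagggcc

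The cells were Cas9-LP, a line of lymphoid progenitors derived from fetal liver of mice that lacked Ebf1 and carried Cas9 at Rosa26, so every group shared both changes. LP cells were cultured on OP9 stroma. The Phase 1 cells and the later Phase 2 cells were on OP9-DLL4 stroma, which presents a Notch ligand. ChIP-seq was made for RUNX1, CTCF, the Mediator subunit Med12 and the acetyltransferase p300 in LP and Phase 1, and for the intracellular domain of Notch1 (Notch1-IC) in these stages and also in Phase 2. Cells that received guide RNAs on a retrovirus, 3 to 5 days after infection, gave RUNX1 lists for sgCont and sgCTCF in LP and for sgCont and sgMed12 in Phase 1, and Med12 lists for sgCont and sgCbfb in Phase 1. The 38 samples formed 19 groups of 2, and 17 groups had 1 peak list each that pooled both replicates. The 4 input samples were not analysed here.

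The lists held 152 to 49116 peaks, and read depth is unknown from these files. With no value per replicate, no difference between lists could be set against the spread between replicates and no test was made. Intervals are 95% Wilson intervals over genes. They cover counting error only, and genes that share a peak are not independent. A gene was counted as occupied where a peak centre lay within 1 kb of its start. Scores were compared only as percentiles within a list, where 100 is the highest score.

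The promoters of the gene in most lists for each type are shown first, as RefSeq gives them on GRCm38.p6, from 250 bases before to 50 after the start. The H2A and H2B genes in most lists, Hist1h2ak and Hist1h2bn, are a back-to-back pair, so 1 window stands for both. Hist1h2ba, which encodes the testis H2B and had no peak in any list, is shown for contrast. Capitals mark, on either strand, the CCAAT box, the TATA box spelled TATAAA, the octamer ATTTGCAT, the H1 box AAACACA, the H4 element GGTCCG and the E2F string TTTCCCGC. They mark strings wherever these fall in the window, and in Hist1h4a the TATAAA lies after the RefSeq start.
Hist1h1c (chr13:23738557-23738856, + strand): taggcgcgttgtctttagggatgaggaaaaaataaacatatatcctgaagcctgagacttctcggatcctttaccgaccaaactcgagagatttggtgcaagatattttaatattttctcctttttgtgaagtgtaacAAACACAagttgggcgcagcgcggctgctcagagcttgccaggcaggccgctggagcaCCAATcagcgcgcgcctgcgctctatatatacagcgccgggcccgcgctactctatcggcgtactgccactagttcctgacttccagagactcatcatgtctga
Hist1h2bn (chr13:21753826-21754125, + strand): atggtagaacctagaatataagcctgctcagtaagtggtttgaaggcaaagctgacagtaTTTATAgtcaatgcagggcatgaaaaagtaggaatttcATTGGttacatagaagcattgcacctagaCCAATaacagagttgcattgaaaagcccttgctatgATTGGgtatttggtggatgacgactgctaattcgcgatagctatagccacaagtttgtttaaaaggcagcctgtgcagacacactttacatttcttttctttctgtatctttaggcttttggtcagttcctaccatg
Hist1h3e (chr13:23562336-23562635, - strand): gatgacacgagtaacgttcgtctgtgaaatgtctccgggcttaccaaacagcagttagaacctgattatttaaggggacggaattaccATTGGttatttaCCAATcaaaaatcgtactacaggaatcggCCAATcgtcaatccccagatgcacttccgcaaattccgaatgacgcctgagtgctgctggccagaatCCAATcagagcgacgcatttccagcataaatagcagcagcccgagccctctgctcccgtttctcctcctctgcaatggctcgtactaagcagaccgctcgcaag
Hist1h4a (chr13:23761200-23761499, - strand): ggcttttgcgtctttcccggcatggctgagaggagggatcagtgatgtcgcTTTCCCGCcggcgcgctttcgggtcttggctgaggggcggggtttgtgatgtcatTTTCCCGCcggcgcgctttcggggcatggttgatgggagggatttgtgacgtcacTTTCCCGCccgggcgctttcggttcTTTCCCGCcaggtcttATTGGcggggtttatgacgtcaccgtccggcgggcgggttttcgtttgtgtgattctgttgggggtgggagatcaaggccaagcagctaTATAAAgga
Hist1h2ba (chr13:23934107-23934406, - strand): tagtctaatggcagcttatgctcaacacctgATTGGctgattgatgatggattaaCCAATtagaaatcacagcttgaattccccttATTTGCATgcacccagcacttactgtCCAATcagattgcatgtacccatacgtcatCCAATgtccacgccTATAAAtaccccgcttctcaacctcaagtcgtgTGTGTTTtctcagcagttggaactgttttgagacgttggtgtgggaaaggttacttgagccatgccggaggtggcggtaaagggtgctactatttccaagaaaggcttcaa

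RUNX1, Med12 and p300 stood at most of the histone genes in both stages. RUNX1 was at 45 genes in LP (67.2%, interval 55.3% to 77.2%) and 46 in Phase 1 (68.7%, 56.8% to 78.5%), beside 45.2% and 45.9% of all protein-coding genes. Med12 was at 41 in LP (61.2%, 49.2% to 72.0%) and 47 in Phase 1 (70.1%, 58.3% to 79.8%), beside 44.7% and 44.4%. p300 was at 46 (68.7%) and 45 (67.2%), beside 46.6% and 47.2%. CTCF was at fewer, 22 in LP (32.8%, 22.8% to 44.7%) and 21 in Phase 1 (31.3%, 21.5% to 43.2%), beside 22.2% and 21.1%.

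**Figure D1:**
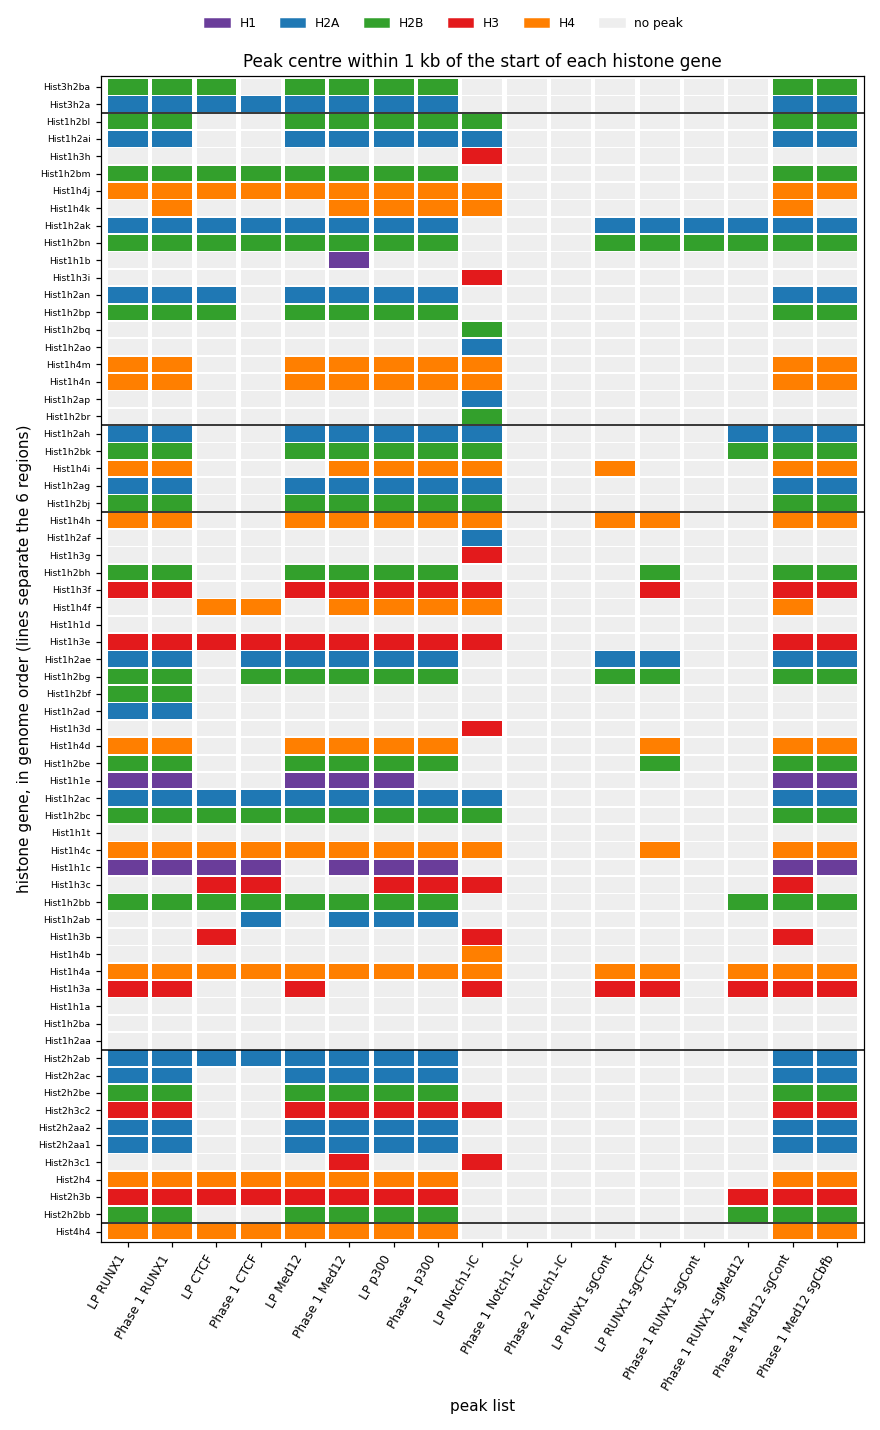
Presence of a peak (coloured by histone type) or its absence (grey) at each of the 67 histone genes, in genome order, in each of the 17 peak lists. RUNX1, Med12 and p300 fill mostly the same rows in both stages, and the LP Notch1-IC column also fills rows that are empty in those lists.

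The background counts every gene at the start of its gene record, and that start lay more than 1 kb from the RefSeq start in 13.5% of 16717 genes but in 1 of 62 histone genes with a RefSeq start. At RefSeq starts, an alternative added after seeing the data, LP RUNX1 was at 48.4% of 16717 genes and at 66.1% of 62 histone genes. At any transcript start it was at 49.8% of all genes and again at 67.2% of histone genes. Expression was not measured in these lists, so silent and active genes are both in the background.

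**Figure D2:**
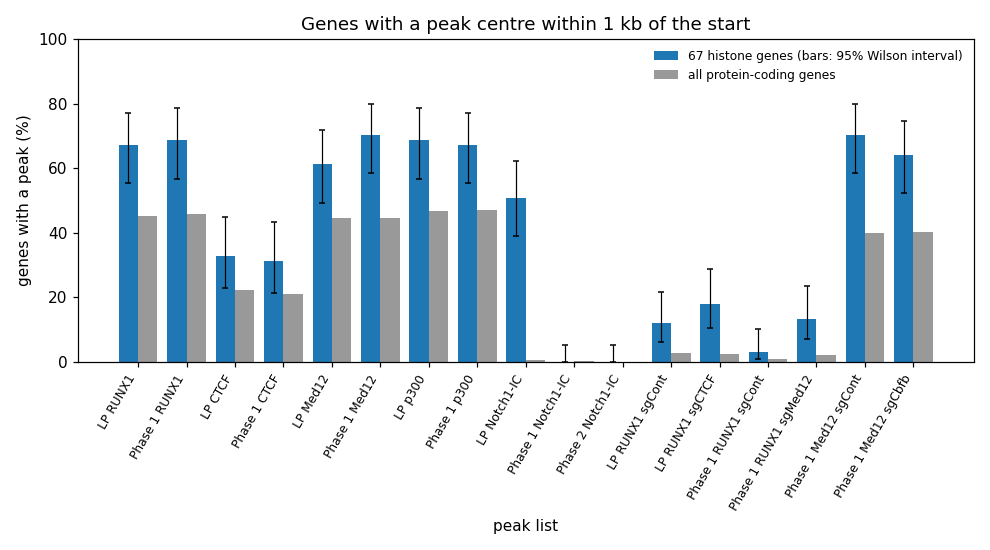
Share of genes (%) with a peak centre within 1 kb of the start in each peak list, for the 67 histone genes (blue, error bars are 95% Wilson intervals) and all protein-coding genes (grey). LP Notch1-IC stands at 50.7% of histone genes and 0.789% of all genes.

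Occupancy is given next by histone type. In LP, RUNX1 was at 2 of 6 H1, 13 of 18 H2A, 15 of 18 H2B, 5 of 12 H3 and 10 of 13 H4 genes. In Phase 1 the counts were the same except for 11 H4 genes. Within 500 bp of the start the LP counts were 2 H1, 13 H2A, 15 H2B, 2 H3 and 8 H4 genes, so the H3 count rested most on the 1 kb limit. The LP RUNX1 peaks at the H4 genes Hist1h4m and Hist1h4n were 660 and 668 bp after the start. RUNX1, Med12 and p300 were all present in both stages at 39 genes (58.2%, beside 39.9% of all genes), namely 12 H2A, 14 H2B, 4 H3 and 9 H4 and 0 H1 genes. At its RefSeq start, 1770 bp from its gene record, the H1 gene Hist1h1d had all 3 factors in both stages, which makes 1 H1 gene. At 15 genes (22.4%, beside 13.2%) CTCF also lay within 1 kb of the start in both stages, among them Hist1h2ak, Hist1h2bn, Hist1h2ac, Hist1h3e, Hist1h4a and Hist1h4c. The LP CTCF centres at Hist1h3e, Hist1h4a and Hist1h4c were -957, 989 and 872 bp from the start. By peak, 4 of 36 LP RUNX1 peaks at histone genes overlapped an LP CTCF peak (11.1%), beside 23.2% of all LP RUNX1 peaks. In Phase 1 the shares were 11.1% and 15.7%.

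Among H1 genes, Hist1h1c was in 9 of 17 lists, with RUNX1 percentiles of 95.3 in LP and 92.9 in Phase 1 and CTCF percentiles of 42.6 and 45.6. Those RUNX1 peaks were centred 948 bp (LP) and 934 bp (Phase 1) after the start. Another LP RUNX1 peak, at 107 bp, had percentile 89.1, and the Phase 1 list had no RUNX1 peak within 500 bp of this start. Hist1h1e was in 7 lists, with RUNX1 at 89.9 and 90.6, the latter on a peak nearer the start of Hist1h2be. Hist1h1b was in 1 list, Phase 1 Med12, at 87.3. The linker histone genes were thus unequal among themselves.

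Among core histone genes the pair Hist1h2ak and Hist1h2bn was in 14 lists, as was Hist1h4a. The pair had RUNX1 percentiles of 95.8 and 94.3 and Med12 percentiles of 98.8 and 96.0 in LP and Phase 1. Hist1h4a had RUNX1 at 97.9 and 95.2, Med12 at 99.7 and 98.0, p300 at 96.5 and 97.9 and CTCF, lower, at 52.6 in Phase 1. The pair Hist1h2ac and Hist1h2bc had the highest RUNX1 percentiles of the histone genes, 99.2 and 99.4, with Med12 at 99.9 and 99.6. Their peaks therefore ranked near the top of the RUNX1 and Med12 lists and low in the LP CTCF list, at 9.80.

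Percentiles of the other leading genes follow. The pair Hist1h2ae and Hist1h2bg, in 11 lists, had RUNX1 at 97.1 and 96.3. Hist1h2bb, also in 11, had RUNX1 at 96.7 and 95.8. Of the H3 genes, Hist1h3e was in 11 lists, with RUNX1 at 94.3 and 93.5. Hist2h3b was also in 11, at 97.2 and 96.4, on a peak it shared with Hist2h2bb. That peak was nearer the Hist2h2bb start, at -166 bp from it in LP and -157 bp in Phase 1. Hist1h3f was in 10, at 91.5 and 88.9, and its LP value came from a peak nearer the start of Hist1h2bh (-67.0 bp). Of the H4 genes, Hist1h4c was in 12 lists with RUNX1 at 96.9 and 94.6 and CTCF at 93.0 and 96.3. The CTCF peak within 1 kb thus ranked high as well, but stood apart from RUNX1. CTCF was centred at 872 bp in LP and 869 bp in Phase 1, and RUNX1 at -76.0 and -69.0 bp. Hist1h4h was in 11 lists, with p300 at 97.9 and 98.1 and no CTCF.

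The 3 genes outside chromosomes 13 and 3 were occupied as well. Hist4h4 had RUNX1 at 89.9 in LP and 88.9 in Phase 1, and Hist3h2a at 89.4 and 81.3. Hist3h2ba was lower, at 61.6 and 33.1.

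Over all occupied histone genes the median RUNX1 percentile was 95.3 in LP and 92.9 in Phase 1, beside 75.2 and 75.7 over all occupied genes. The score of a peak near a start depends on what else the list holds, and this is a description of rank.

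More than 50% of the peaks of RUNX1, Med12 and p300 at histone genes were centred upstream of the start in each unguided list. Of 36 LP RUNX1 peaks at histone genes, 26 were centred upstream, 3 in coding sequence and 7 downstream outside it, with a median of -61.5 bp from the start. Of 39 Phase 1 Med12 peaks, the list with the lowest such share, 21 were upstream, 7 in coding sequence and 11 downstream outside it, with a median of -18.0 bp. The median distance in either direction ran from 80.0 bp (Phase 1 Med12) to 106.5 bp (LP RUNX1) over these 3 factors and both stages, and was 373.5 bp for LP CTCF and 360.0 bp for Phase 1 CTCF. From the LP RUNX1 centres the nearest LP Med12 centre was a median of 27.5 bp away, the nearest p300 centre 55.0 bp and the nearest CTCF centre 1226 bp.

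Of 13 back-to-back pairs, 12 joined an H2A and an H2B gene, with starts 176 to 306 bp apart (median 259.5 bp). A RUNX1 centre lay between both starts in 9 of the 12 in each stage. Med12 did so in 8 in LP and 7 in Phase 1, p300 in 7 in both, and CTCF and Notch1-IC in 0. The pairs with none were Hist1h2bq with Hist1h2ao and Hist1h2ap with Hist1h2br, which are near-copies of each other, and the testis pair Hist1h2ba with Hist1h2aa. The pair Hist1h2bf and Hist1h2ad, chosen after its values were seen, had RUNX1 at 97.6 and 96.7 but no Med12 or p300 peak.

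**Figure D3:**
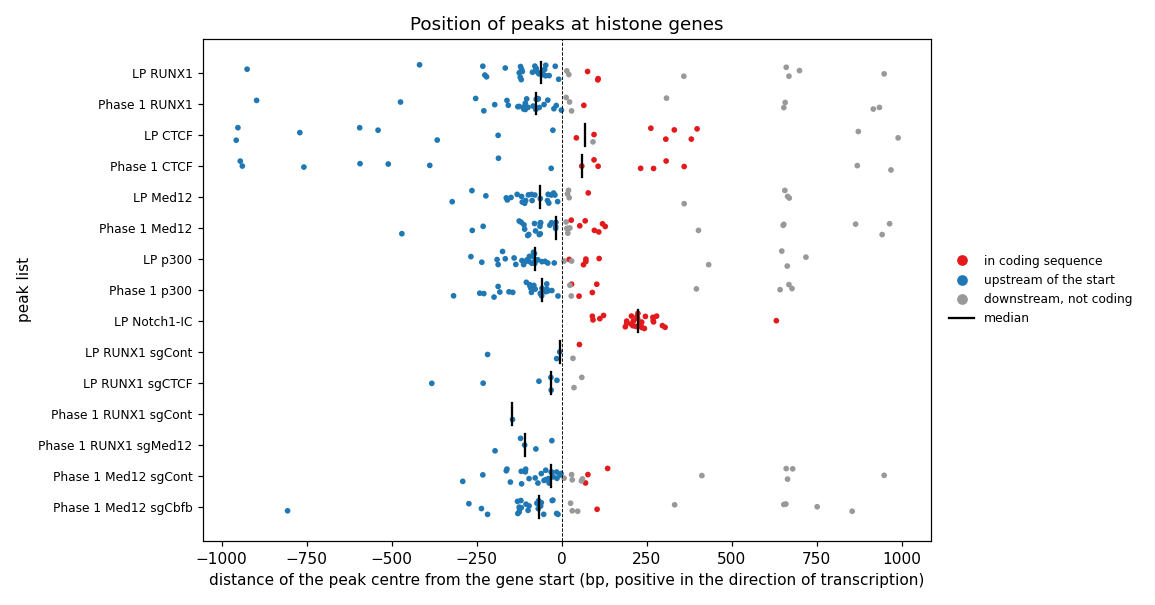
Distance of each peak centre from the start of its histone gene (bp, positive in the direction of transcription) in each list with such peaks, coloured by place, with the median as a black line. Most RUNX1, Med12 and p300 peaks lie upstream of the start, whereas all 29 LP Notch1-IC peaks lie in coding sequence, from 90 to 631 bp downstream.

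The move from LP to Phase 1 asks whether occupancy shifted as Notch signaling began. For RUNX1, 45 histone genes were occupied in both stages, 0 in LP only (1.89% of all genes) and 1 in Phase 1 only (2.62% of all genes), Hist1h4k at percentile 87.0. For p300, 45 were occupied in both, 1 in LP only (2.58%), Hist1h1e at 80.0, and 0 in Phase 1 only (3.15%). Of genes occupied in either stage, 97.8% of histone genes and 90.6% of all genes had RUNX1 in both, and 97.8% and 88.5% had p300 in both. The same shares were lower for histone genes than for all genes with Med12 (83.3% and 87.5%) and CTCF (72.0% and 75.5%).

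Med12 was listed at more histone genes in Phase 1 only than in LP only. It was at 40 genes in both stages, at 1 in LP only (3.1% of all genes) and at 7 in Phase 1 only (10.4%, interval 5.15% to 20.0%, beside 2.85% of all genes). The LP-only gene was Hist1h3a, at 99.7, whose peak it shared with Hist1h4a. Hist1h4a had Med12 in Phase 1 too, at 98.0, and all 31 LP Med12 peaks at histone genes overlapped a Phase 1 Med12 peak. The LP-only call of Hist1h3a thus rests on the 1 kb limit. The Phase 1-only genes were Hist1h1c (95.9), Hist1h2ab (94.0), Hist1h4i (93.4), Hist1h4f (89.5), Hist1h4k (89.3), Hist1h1b (87.3) and Hist2h3c1 (68.9). Of these 7, 5 had a p300 peak in LP, beside 68.7% of all histone genes and 46.6% of all genes. The Phase 1 Med12 list held 39132 peaks against 30020 in LP, and with lists of equal length the counts were again 40, 1 and 7.

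CTCF was at 18 genes in both stages, 4 in LP only (3.57% of all genes) and 3 in Phase 1 only (2.46%). The LP-only genes were Hist1h3b at percentile 18.9, the pair Hist1h2an and Hist1h2bp at 11.1 and Hist3h2ba at 2.96. The Phase 1-only genes were Hist1h2ab at 38.6 and the pair Hist1h2ae and Hist1h2bg at 34.6. At scores of at least 30 the counts were 13 in both, 0 in LP only and 8 in Phase 1 only, so the larger stage-only count changed sides. Within 500 bp of the start 8 genes had CTCF in both stages, and within 250 bp 4.

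Among genes occupied in both stages, ranks were mostly lower in Phase 1 for RUNX1, Med12 and p300 and higher for CTCF. RUNX1 percentiles were higher in Phase 1 at 3 of 45 histone genes (54.9% of all genes occupied in both), Med12 at 3 of 40 (40.8%) and p300 at 11 of 45 (69.1%). CTCF percentiles were higher at 18 of 18 (68.7%), and the median went from 37.9 to 47.9. Genes that share a peak count more than once here, and list lengths differ.

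**Figure D4:**
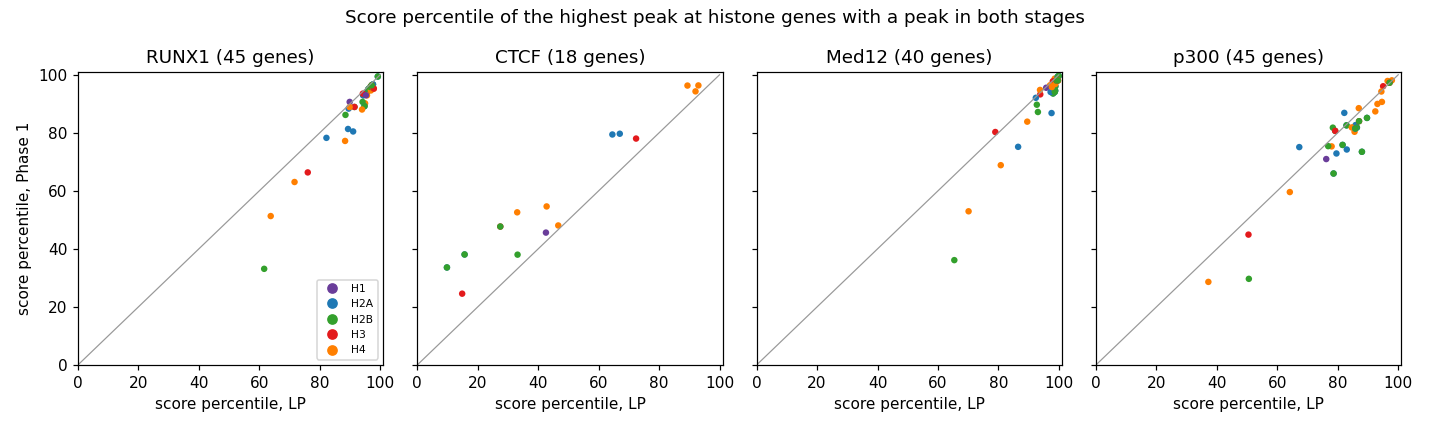
Score percentile in LP (x axis) and Phase 1 (y axis) of the highest peak at each histone gene occupied in both stages, by factor, coloured by histone type, with the line of equality. RUNX1 and Med12 points lie mostly below the line and all 18 CTCF points above it.

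Notch1-IC was at 34 histone genes in LP (50.7%, interval 39.1% to 62.3%, beside 0.789% of all genes), and at 0 in Phase 1 and 0 in Phase 2 (upper limit 5.42% in each, beside 0.21% and 0.109% of all genes). The Phase 1 and Phase 2 lists used here were short, at 152 and 352 peaks against 1585, so the 0 describes these lists and not the absence of Notch1-IC. By type the LP list held 0 of 6 H1, 7 of 18 H2A, 6 of 18 H2B, 11 of 12 H3 and 10 of 13 H4 genes. By the coding sequence that held the peak centre, the counts were 3 H2A, 6 H2B, 11 H3 and 9 H4. Hist1h2ai, Hist1h2ah, Hist1h2ag and Hist1h2ac counted only through a peak in their H2B partner, and Hist1h4a only through the peak in Hist1h3a. The highest percentiles were at Hist1h3d (73.2), Hist1h3h (72.8), Hist1h3b (71.8) and the pairs Hist1h2bq with Hist1h2ao and Hist1h2ap with Hist1h2br (67.3). For both pairs the 67.3 came from the peak in the H2B gene, with score 24.6. The peaks in Hist1h2ao and Hist1h2ap themselves had score 16.5. Within 5 kb the number was 52, beside 1.504% of all genes.

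These peaks differed in place from those of the other factors. There were 29, and all 29 were centred in coding sequence, from 90 to 631 bp after the start (median 224 bp). They also differed from the rest of their own list. Of the 29, 5 overlapped an LP RUNX1 peak (17.2%), 4 an LP Med12 peak (13.8%) and 1 an LP p300 peak (3.45%). Over all 1585 peaks of the list these shares were 89.2%, 89.1% and 90.0%. LP cells were on OP9 stroma, not on the OP9-DLL4 stroma that presents the Notch ligand. The scores of the 29 ran from 15.2 to 26.9, close to the lowest score in the list of 15, and 0 of 34 genes remained at a score of at least 30. Within 250 bp of the start 32.8% of histone genes were left. Of the histone genes with LP Notch1-IC, 10 had no peak in any of the 8 unguided RUNX1, CTCF, Med12 and p300 lists, of 21 such genes in all. By type they were 3 H2A, 2 H2B, 4 H3 and 1 H4.

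Sequence copied elsewhere in the genome moved with these peaks. Of the 50-base words under each LP Notch1-IC peak at a histone gene, a median of 99.4% (62.0% to 100%) had another exact copy, and over 50% of words were copied in 29 of 29 peaks. This held for 160 of 1555 other peaks of the list (10.3%), for 3 of 36 LP RUNX1 peaks at histone genes and for 178 of 31943 other LP RUNX1 peaks (0.557%). CTCF peaks at histone genes had a median of 25.1% copied words in LP and 25.7% in Phase 1. Over 50% were copied in 1 of 18 and 2 of 17 of them. The aligner kept reads with up to 10 places and dropped those with more. Of the 29 peaks, 27 held at least 1 word with more than 10 places. So did 2 of the 36 LP RUNX1 peaks, 8 of the 18 LP CTCF peaks and 9 of the 17 Phase 1 CTCF peaks. Such words were 0% to 68.4% of the words of an LP Notch1-IC peak. The part of copied sequence in the result was not tested. This measure and its limit were chosen after seeing the data.

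Copies were common around the starts of these genes in general. Over 10% of the words within 200 bp of the start were copied in 44 of 67 histone genes and in 12.0% of all genes. LP Notch1-IC was at 29 of those 44 and at 5 of the other 23 (21.7%). LP RUNX1 was at 30 of 44 and 15 of 23.

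Positions in the coding sequence are given by type. H4 peaks were centred at coding positions 168 to 229 of 309 (9 peaks), H3 at 79 to 243 of 408 (11), H2B at 113 to 237 (6) and H2A at 86 to 92 of 390 (3). The near-copies Hist1h2bq and Hist1h2br had the same score, 24.6, as did Hist1h2ao and Hist1h2ap, 16.5, and Hist2h3c1 and Hist2h3c2, 15.2. For each type 1 word of 50 bases is shown, because most of its peaks and many of its genes hold it letter for letter:
H2A, Hist1h2af (chr13:23533956-23534005, + strand), in 3 of 3 peaks and 9 of 18 genes: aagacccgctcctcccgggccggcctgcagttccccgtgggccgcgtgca
H2B, Hist1h2bc (chr13:23684394-23684443, + strand), in 6 of 6 peaks and 12 of 18 genes: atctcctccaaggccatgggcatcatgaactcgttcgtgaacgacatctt
H3, Hist1h3a (chr13:23762112-23762161, - strand), in 9 of 11 peaks and 12 of 12 genes: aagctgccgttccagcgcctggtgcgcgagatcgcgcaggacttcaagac
H4, Hist1h4b (chr13:23757213-23757262, + strand), in 9 of 9 peaks and 11 of 13 genes: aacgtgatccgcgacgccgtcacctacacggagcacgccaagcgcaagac

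**Figure D5:**
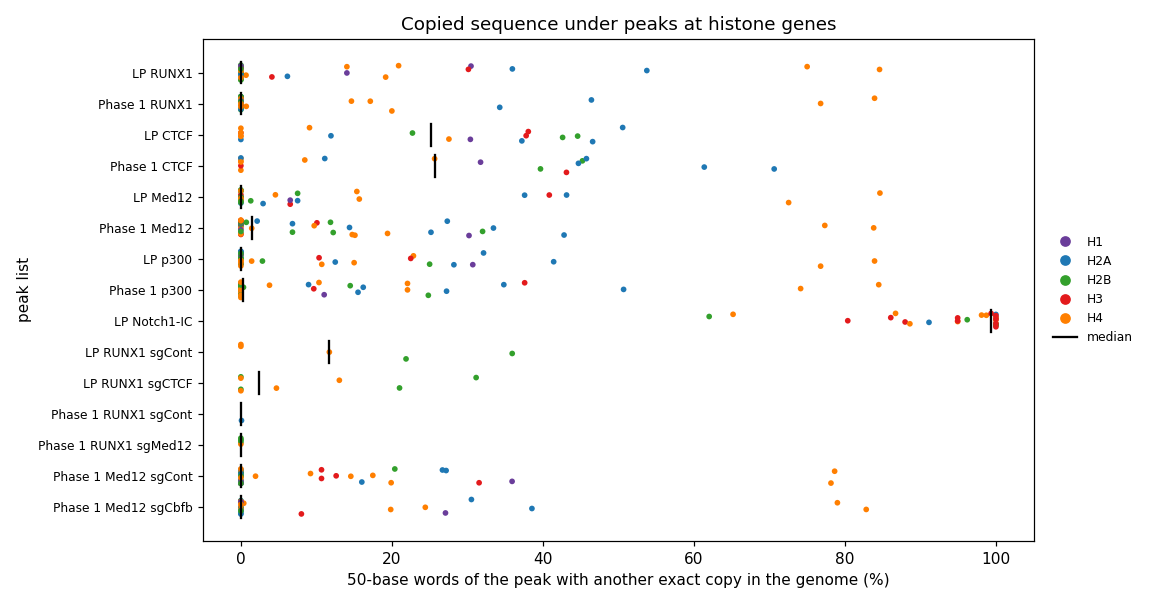
Share (%) of the 50-base words of each peak at a histone gene that have another exact copy in the genome, by list, coloured by histone type, with the median as a black line. LP Notch1-IC peaks lie between 62.0% and 100%, and most peaks of RUNX1, Med12 and p300 lie near 0.

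The guide lists ask how occupancy changed when CTCF, Med12 or Cbfb, the partner of RUNX1, was targeted. Loss of the targeted proteins was not measured in these lists. The guide RUNX1 lists were short and held few histone genes. LP RUNX1 was at 8 with sgCont (11.9%, interval 6.18% to 21.8%, beside 2.94% of all genes) and at 12 with sgCTCF (17.9%, 10.6% to 28.7%, beside 2.4%). It was at 7 with both, at Hist1h4i (38.9) with sgCont only (1.25% of all genes) and at 5 with sgCTCF only (0.716%).

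The genes with both were Hist1h4a and Hist1h3a, which share a peak (percentile 94.4 with sgCTCF), Hist1h4h (67.8), the pair Hist1h2ae and Hist1h2bg (61.7) and the pair Hist1h2ak and Hist1h2bn (36.7). Those with sgCTCF only were Hist1h4d (66.2), Hist1h4c (59.6), Hist1h2bh and Hist1h3f on 1 peak (7.27) and Hist1h2be (4.18). The 12 genes came from 8 peaks. The unguided LP RUNX1 list shortened to 975 and 874 peaks held 13 and 6 histone genes, and 3.32% and 2.96% of all genes.

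In Phase 1, RUNX1 was at 2 genes with sgCont (2.99%, interval 0.822% to 10.2%, beside 0.962% of all genes), the pair Hist1h2ak and Hist1h2bn on 1 peak, and at 9 with sgMed12 (13.4%, 7.23% to 23.6%, beside 2.05%). It was at 0 with sgCont only (0.264% of all genes) and at 7 with sgMed12 only (1.35%), on 4 peaks: Hist1h4a with Hist1h3a (89.5), Hist2h3b with Hist2h2bb (48.4), Hist1h2bb (27.6) and Hist1h2ah with Hist1h2bk (10.1). The unguided list shortened to 1550 and 2094 peaks held 8 and 19, and 4.48% and 5.89% of all genes. In Phase 1 the guide RUNX1 lists thus held fewer starts than unguided lists of their length, over all genes as well as over histone genes.

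Med12 in Phase 1 was at 47 genes with sgCont (70.1%, beside 40% of all genes) and at 43 with sgCbfb (64.2%, interval 52.2% to 74.6%, beside 40.2%). The 43 were in both lists, 4 were with sgCont only (2.23% of all genes) and 0 with sgCbfb only (2.47%). The 4 were Hist1h3c (77.9), Hist1h3b (71.0), Hist1h4f (70.4) and Hist1h4k (70.2). Of genes in either list, 91.5% of histone genes and 88.9% of all genes were in both. Over the shared 43 the median percentile was 83.4 with sgCont and 83.1 with sgCbfb, higher with sgCbfb at 20 (46.5%). Over all 8285 genes in both lists the medians were 74.2 and 76.4, and 63.4% were higher with sgCbfb.

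In none of the 17 lists were Hist1h1t, Hist1h2aa and Hist1h2ba, which encode the H1, H2A and H2B of the testis, Hist1h1a and Hist1h1d. These 5 were 7.46% of the histone genes, beside 45.4% of all genes in none of the lists. The lack of a peak at Hist1h1d rests on the start used. Its gene record began 1770 bp upstream of its RefSeq start, and at the RefSeq start it had RUNX1 at percentiles 89.0 in LP and 83.8 in Phase 1, Med12 at 92.4 and 92.7, p300 at 81.5 and 77.2 and Med12 with sgCont at 70.9. RefSeq starts moved the count of histone genes by at most 1 in any list.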

How the data were processed

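ChIP-seq was done in a mouse Cas9-LP line (38 samples in 19 groups of 2). The deposited files were 17 peak lists annotated with HOMER, one per ChIP group, each pooling both replicates. The 4 input samples were not analysed here. Per the labels and the study's methods, the authors aligned reads to mm10 with Bowtie 1.1.1, keeping reads with up to 10 best places, called peaks with HOMER and kept those reproducible between replicates (IDR). The deposited peak score is a HOMER/IDR score whose scale is not given in the sources used here. It was used only for ranks within a list. The lowest score in any list was 15. The deposited distance to the start and focus ratio were other numbers of the authors' annotation, and the former served only in an alternative.

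Members were the protein-coding genes of GENCODE M21 (GRCm38, the mm10 assembly) named Hist1h to Hist4h. A gene had a peak where a peak centre lay within 1 kb of its start. The members and lists were chosen with earlier results of these data known. Named genes followed a fixed rule: by type, the 3 members in most lists; members in 1 stage only; up to 10 members of the Notch1-IC and guide RUNX1 lists, otherwise the 5 of highest percentile; members of a single Med12 guide list; members with no peak; members outside chromosomes 13 and 3; and, of 2 comparison lists, the 3 genes in most lists and those in none. Wilson intervals (95%) cover counting error only, and there are no values per replicate, so nothing was tested. Copies of 50-base words were counted in GRCm38.p6 over both strands. Read depth is unknown from these files. Peak assignment and the word count were tested on simulated data. Alternatives were narrower windows, a score of at least 30, other starts, start clusters, lists of equal length and members with few copied words. Software was Python 3.11.15, numpy 2.4.6, pandas 2.3.3, scipy 1.17.1, numba 0.67.0, pysam 0.24.0 and matplotlib 3.10.9.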

Additional observations from a re-analysis of the deposited data

How the results depend on the processing

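Values here are shares of the genes counted. Of 379 alternatives, 315 stayed within 1.5 times the main share and 64 did not. No paired analysis was possible because each list pools its 2 replicates, and leaving out a replicate could not be run for the same reason. Any transcript start and an overlap of 1 bp moved no share past that limit. Beyond what a setting itself removes, the cause was not tested.

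Within 500 bp of the start, the share of histone genes was 16.4% in LP CTCF and 14.9% in Phase 1 CTCF, 11.9% had CTCF in both stages, 1.49% had RUNX1 in LP only, 0% had Med12 in LP only, and 16.7% of H3 genes had LP RUNX1. Within 250 bp it was 7.46% in LP CTCF, 8.96% in Phase 1 CTCF and 32.8% in LP Notch1-IC. At that width 5.97% had CTCF in both stages and 1.49% in LP only, 2.99% had RUNX1 in LP only, 2.99% had p300 in LP only and 1.49% in Phase 1 only, 4.48% had RUNX1 with sgCTCF only and 1.49% had Med12 with sgCbfb only. By type, 8.33% of H3 genes had LP RUNX1, and 16.7% of H2A and 50.0% of H3 genes had LP Notch1-IC. Within 5 kb, 77.6% had LP Notch1-IC.

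With scores of at least 30, 0% had LP Notch1-IC (0% of H2A, H2B, H3 and H4), 19.4% LP CTCF, 2.99% LP RUNX1 with sgCont, 5.97% with sgCTCF, 0% Phase 1 RUNX1 with sgCont and 2.99% with sgMed12. By stage, 1.49% had RUNX1 in LP only, 0% CTCF in LP only, 11.9% CTCF in Phase 1 only, 2.99% Med12 in LP only and 4.48% p300 in LP only. By guide, RUNX1 in LP was at 2.99% with both, 0% with sgCont only and 2.99% with sgCTCF only, and in Phase 1 at 0% with both and 2.99% with sgMed12 only.

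Over the 23 genes with few copied words, 21.7% had LP Notch1-IC (0% of H2A and H2B) and 0% had Phase 1 RUNX1 with sgCont. Among them 0% had RUNX1 in Phase 1 only, Med12 in LP only, LP RUNX1 with sgCont only or Phase 1 RUNX1 with both guides, and 4.35% had p300 in LP only. With the deposited nearest promoter, RUNX1 was at 7.46% (LP sgCont), 1.49% (Phase 1 sgCont) and 7.46% (sgMed12). Start clusters counted once gave 1.85% for Phase 1 RUNX1 with sgCont. RefSeq starts, added after seeing the data, gave 7.46% for CTCF in Phase 1 only and 1.49% for p300 in Phase 1 only. Lists of equal length gave 0% for Phase 1 RUNX1 with both guides and 2.99% with sgCont only. With the shortened unguided list in place of sgCont, sgCTCF gave 2.99% in both, 5.97% in the control only and 14.9% with the guide only, sgMed12 gave 10.4%, 17.9% and 2.99%, and 4.48% had Med12 with sgCbfb only.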

Other observations

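Sequence strings known from histone promoters fell by histone type. RefSeq promoter windows (GRCm38.p6, 250 bases before to 50 after the start) matched 62 of 67 genes. CCAAT, the box bound by NF-Y, was in 53 of 62 windows on either strand, against 37.9% of 27025 RefSeq promoters. It was in all 6 H1, 18 H2A, 16 H2B and 10 H3 windows, and in 3 of 12 H4 windows. GGTCCG, the core of the H4 element bound by HINFP, was in 11 of 12 H4 windows, 1 H2B and 1 H3 window (8.39% of all promoters). AAACACA, the H1 box, was in 5 of 6 H1, 2 H2A and 2 H2B windows (7.14% of all promoters). ATTTGCAT, the octamer bound by OCT1, was in 7 H2A and 6 H2B windows and 0 of the other types (1.75% of all promoters). TATAAA was in 35 windows (14.2% of all promoters). One of the E2F strings TTTCCCGC, TTTGGCGC and TTTCGCGC was in 10 windows, 5 of H2A, 4 of H2B and 1 of H4 (1.91% of all promoters). Windows of back-to-back pairs share bases, so these counts are not independent.

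One of the RUNX strings TGTGGTT and TGCGGTT was in 2 of 62 windows (6.89% of all promoters), in 1 of 40 genes with and 1 of 22 without an LP RUNX1 peak. The CTCF motif was in 0 of 62 windows (0.551% of all promoters). A match or its lack describes only the strings searched in these windows.

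Genes that make and process histone messages were occupied at their starts as well. Of 24 such genes, 21 had RUNX1, Med12 and p300 in both stages (39.9% of all genes), among them Npat, the coactivator of the histone locus body, and Slbp, the stem-loop binding protein. Those in most lists were Cstf2 (12 of 17), Casp8ap2 (11) and Pou2f1 (11). Coil, Nfyc and Zfp473 were in 0 lists at the start of their gene record, and in 10, 8 and 8 lists at their RefSeq start, which lay 3683, 5831 and 2433 bp away. Of 11 replication-independent histone genes, 8 had RUNX1 in both stages (9501 of 21938 over all genes), and those in most lists were H2afv (12), H2afx (10) and Cenpa (9). H3f3b, which encodes H3.3, was in 0 lists at its gene record and in 11 at its RefSeq start 3458 bp away. H1fx and H2afy2 were in 0 lists at their gene records and in 1 each at their RefSeq starts.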
